A study of Arabidopsis thaliana with 48 samples.

Results

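Transcript levels at zeitgeber time (ZT) 16, counted in hours from lights on, were compared between aba1-6 plants and wild type. Of 48 libraries in the study, 8 were compared here: 4 of aba1-6 (2 under drought and 2 under normal watering) and 4 of wild type, again 2 and 2. The labels define these groups, and watering was kept as a block by averaging the differences within each regime. Drought meant a relative soil water content of 30% from soon after germination, and normal watering one of 80 to 90%. All plants shared the Columbia background, an age of 3 weeks and short days of 8 h light. On the harvest day the light was extended past ZT8, so the ZT16 plants had been lit for the whole 16 h. Only aerial parts were taken, from about 50 seedlings of 3 pots pooled for a library. The 2 libraries of a group are called biological replicates in the labels. In bulk RNA from pooled shoots, fewer cells of a type and less RNA per cell cannot be told apart.

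The ABA1 gene encodes zeaxanthin epoxidase, a chloroplast enzyme that makes the epoxycarotenoid precursors of abscisic acid (ABA), and aba1 mutants are poor in the hormone. ABA is the main hormone of water deficit in leaves. It binds PYR/PYL receptors, which then inhibit clade A PP2C phosphatases. This frees SnRK2 kinases to activate ABF transcription factors, which bind promoters through a motif with the core ACGTG, and to close stomata. Genes of the PP2C and AFP families, both of which dampen the signal, are themselves induced by ABA, and so are the CYP707A enzymes that break the hormone down.

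The ABA1 transcript (AT5G67030, chr5:26753469-26757402 in TAIR10.1) stood at 104 and 103 CPM under normal watering and 121 and 112 CPM under drought in aba1-6, against 130.2 and 113 CPM under normal watering and 153 and 97.4 CPM under drought in wild type. The genotypes overlapped, and with a log2 fold change of -0.18 ± 0.13 SE the gene was not called (edgeR adjusted p = 0.461), so the level of this transcript does not check the genotype labels. Library totals ran from 8286725 to 23667341 counts in aba1-6 and from 2289812 to 9258249 in wild type. The shallowest, wild-type drought replicate 2, stood apart on the first principal component (42% of the variance), at 47.7 against -18.8 to 9.79 for the other 7, and counts of called genes that change without it are given below, or the calls that are then lost are named. Leaf markers were plentiful in both genotypes. The 21 photosynthesis genes summed to 46117 to 54806 CPM (a gene's counts scaled to a common library total) in aba1-6 and 38147 to 60194 CPM in wild type. Of 7 root markers 3 were measurable, and these summed to 0.648 to 28.1 CPM in aba1-6 and 0.77 to 20.5 CPM in wild type. Of 8 floral markers 2 were measurable, and their sum was 2.07 to 3.33 CPM in aba1-6 and 0.264 to 1.05 CPM in wild type, while none of the 4 seed storage markers was measurable.

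Over both waterings 1495 of 19037 genes tested (7.85%) differed between aba1-6 and wild type by edgeR's quasi-likelihood test at an adjusted p under 0.05, which is what "called" means below. Of these, 661 (3.47%) were higher in aba1-6 and 834 (4.38%) were lower. The split depended on the scaling: with library totals in place of TMM factors, 944 were higher and 604 lower, and the share of higher calls was 61.0% instead of 44.2%. The count was 822 without aba1-6 normal replicate 2, 891 without aba1-6 drought replicate 1, 954 without wild-type normal replicate 1, 2244 without wild-type drought replicate 1 and 1002 without the shallow wild-type library. With only the 8 libraries in the fit it was 579. For the comparison over both waterings, that fit used additive terms for genotype and watering in place of group means. It tested 18164 genes, so model and libraries changed together. The lists of genes that follow are read against these shares, and the median log2 fold change of all genes tested was 0.01.

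**Figure D1:**
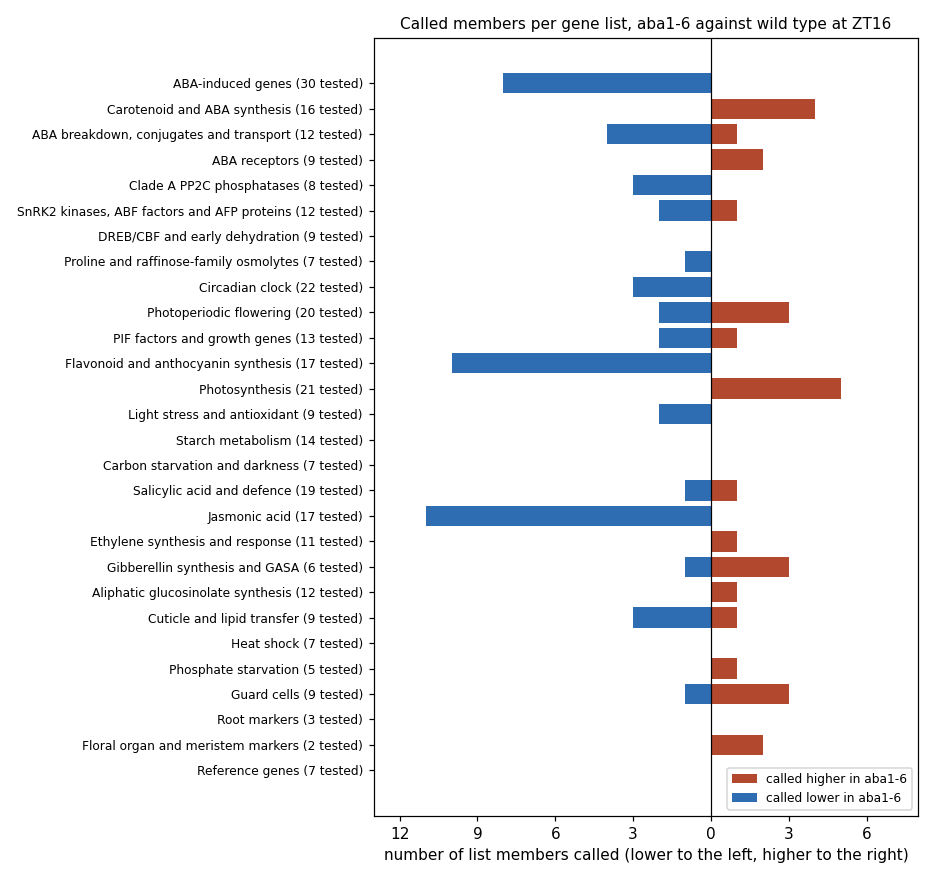
Number of members of each gene list called higher (bars to the right) or lower (bars to the left) in aba1-6 than in wild type at ZT16, over both waterings, with the number tested beside the name. The jasmonic acid list has 11 members lower of 17, the flavonoid and anthocyanin list 10 of 17 and the ABA-induced list 8 of 30, with no member higher in any of these.

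Some genes that ABA or dehydration is known to induce fell in aba1-6, and most did not pass the test. Of 30 tested, 8 fell and 0 rose by edgeR, with a median log2 fold change of -0.40. At an unadjusted p under 0.05 the counts were 11 lower and 0 higher, and DESeq2 called 9 lower and 1 higher (LEA7). Without the shallow library 7 fell, and leaving out any 1 library gave 6 to 8. In 4 of the 30 all aba1-6 libraries lay below all wild-type libraries, which 4.46% of all genes tested did, and in 0 of the 30 they lay above, against 4.29%. The largest change was in COR15A, which encodes a chloroplast protein that protects membranes during freezing and dehydration. Its level was 18.7 and 16.7 CPM under normal watering and 44.1 and 67.8 CPM under drought in aba1-6, against 174 and 146 CPM under normal watering and 235 and 369 CPM under drought in wild type. Each aba1-6 library was far below each wild-type library, and both genotypes were higher under drought (log2 fold change -2.80 ± 0.22 SE, edgeR adjusted p = 1.06e-09). COR15B, the neighbouring gene, whose transcript can share reads with it, fell by 1.12 on the log2 scale (edgeR adjusted p = 6.36e-09). KIN2, a small hydrophilic protein gene induced by cold and ABA, stood at 46.3 and 38.1 CPM under normal watering and 55.4 and 70.2 CPM under drought in aba1-6, against 149 and 148 CPM under normal watering and 218 and 389 CPM under drought in wild type. The genotypes did not overlap (-2.04 ± 0.22 SE, edgeR adjusted p = 2.79e-07). Its close copy KIN1, with which reads can be split, had a log2 fold change of -2.48 and missed the threshold (edgeR adjusted p = 0.0785).

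RD20, a calcium-binding caleosin of lipid bodies, stood at 24.05 and 18.03 CPM under normal watering and 52.1 and 39.9 CPM under drought in aba1-6, against 73.8 and 42.8 CPM under normal watering and 109 and 127 CPM under drought in wild type. Within each watering aba1-6 was the lower, while aba1-6 under drought overlapped wild type under normal watering (-1.42 ± 0.24 SE, edgeR adjusted p = 0.000411). RD29A, the classical dehydration reporter (LTI78 in the annotation), stood at 38.8 and 36.9 CPM under normal watering and 130.4 and 106 CPM under drought in aba1-6, against 125 and 69.7 CPM under normal watering and 209.6 and 214 CPM under drought in wild type. Here too aba1-6 was the lower within each watering, and aba1-6 under drought overlapped wild type under normal watering (-1.11 ± 0.17 SE, edgeR adjusted p = 5.59e-05). The membrane protein gene COR413-PM1 fell by 0.56 on the log2 scale (edgeR adjusted p = 2.14e-05). HIS1-3, a drought-inducible linker histone, and ERD10, a dehydrin, were also called lower, at -1.25 and -0.44. The HIS1-3 call was lost on leaving out any 1 of normal replicate 2 and drought replicate 2 of aba1-6, and normal replicate 2 and drought replicate 2 of wild type (adjusted p up to 0.102). That of ERD10 was lost without any 1 of normal replicate 2 and drought replicate 1 of aba1-6, and normal replicate 1 and drought replicate 1 of wild type (adjusted p up to 0.109). LTI65, also known as RD29B and induced by ABA through ABA-responsive elements, did not pass the test. It stood at 0.189 and 0.161 CPM under normal watering and 56.9 and 20.5 CPM under drought in aba1-6, against 0.529 and 0.311 CPM under normal watering and 16.7 and 38.5 CPM under drought in wild type, so it was near 0 under normal watering in both genotypes, and the genotypes overlapped under drought (log2 fold change -0.32, edgeR adjusted p = 0.966). The late embryogenesis gene LEA4-5 had the same layout, with -0.37 and an edgeR adjusted p of 0.929. RAB18 is left out of the list because loci share that symbol in the annotation, so its row could not be tied to 1 locus. That row was not called over both waterings (edgeR adjusted p = 0.188).

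The promoters of the 3 genes COR15A, KIN2 and RD20 are shown because, among the 8 that fell, these hold the ACGTG core of the ABA-responsive element within the 250 bases before the annotated start (RefSeq, TAIR10.1). Capitals mark ACGTG and CCGAC, the core of the dehydration-responsive element bound by DREB factors, on either strand, so that CACGT and GTCGG are matches on the opposite strand and CACGTG matches on both. COR15A lies at chr2:17712331-17712580 on the minus strand, KIN2 at chr5:5211469-5211718 on the plus strand and RD20 at chr2:14146556-14146805 on the minus strand.
COR15A: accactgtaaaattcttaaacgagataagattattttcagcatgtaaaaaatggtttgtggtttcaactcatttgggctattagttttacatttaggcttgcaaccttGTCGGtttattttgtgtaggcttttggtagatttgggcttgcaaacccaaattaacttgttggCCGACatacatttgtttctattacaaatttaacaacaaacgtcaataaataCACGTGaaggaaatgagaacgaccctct
KIN2: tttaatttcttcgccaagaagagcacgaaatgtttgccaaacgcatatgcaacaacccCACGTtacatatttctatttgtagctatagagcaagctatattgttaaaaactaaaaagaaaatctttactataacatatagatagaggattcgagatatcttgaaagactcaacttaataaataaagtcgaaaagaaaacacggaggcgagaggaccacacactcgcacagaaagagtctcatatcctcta
RD20: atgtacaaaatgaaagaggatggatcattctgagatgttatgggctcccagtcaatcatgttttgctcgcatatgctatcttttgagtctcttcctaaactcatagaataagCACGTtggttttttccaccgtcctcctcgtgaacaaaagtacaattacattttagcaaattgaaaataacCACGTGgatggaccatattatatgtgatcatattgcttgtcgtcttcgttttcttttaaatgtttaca
ACGTG was thus found in 3 of the 8 genes (37.5%), against 23.4% of the 18777 genes tested that have such a window. CCGAC was also found in 3 of 8 (37.5%), against 13.0%. The evening element AAATATCT, bound by clock factors, was found in 0 of 8, against 5.06%. In COR15A the nearest ACGTG began 27 bases before the start, in RD20 67 and in KIN2 192.

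Of the clade A PP2C phosphatases, 3 of 8 tested fell and 0 rose by edgeR, with a median of -0.68. At an unadjusted p under 0.05 the counts were 5 lower and 0 higher, and DESeq2 called 3 lower and 0 higher. PP2CA, which acts in ABA signalling of guard cells and seeds, stood at 24.7 and 23.01 CPM under normal watering and 51.2 and 45.6 CPM under drought in aba1-6, against 42.6 and 51.7 CPM under normal watering and 122 and 101 CPM under drought in wild type. It was higher under drought in both genotypes and in each watering lower in aba1-6 (-1.10 ± 0.14 SE, edgeR adjusted p = 4.41e-07). HAI1 was at 0.754 and 0.281 CPM under normal watering and 8.798 and 4.37 CPM under drought in aba1-6, against 3.31 and 2.801 CPM under normal watering and 31.4 and 38.9 CPM under drought in wild type. HAI2 was at 0.189 and 0.0803 CPM under normal watering and 5.28 and 3.91 CPM under drought in aba1-6, against 0.264 and 1.87 CPM under normal watering and 19.5 and 24.6 CPM under drought in wild type. Both were scarce without drought, and under drought both aba1-6 libraries lay well below both wild-type libraries. Their log2 fold changes were -2.58 ± 0.69 and -2.62 ± 0.51 SE (edgeR adjusted p = 0.0204 and 0.000758). The HAI1 call was lost without any 1 of normal replicate 2 and drought replicate 2 of aba1-6, and normal replicates 1 and 2 of wild type (adjusted p up to 0.137), and that of HAI2 without normal replicate 2 of wild type (adjusted p = 0.313). The founding members ABI1 and ABI2 did not pass the test, with log2 fold changes of -0.14 and -0.32 (edgeR adjusted p = 0.445 and 0.126). AFP1 and AFP3, which bind the transcription factor ABI5 and dampen its action, fell by 1.55 and 1.35 (edgeR adjusted p = 0.00151 and 1.89e-06). AFP3 stood at 7.73 and 7.27 CPM under normal watering and 21.1 and 14.3 CPM under drought in aba1-6, against 18.25 and 16.96 CPM under normal watering and 41.6 and 58.9 CPM under drought in wild type. Its order of groups was again lowest in aba1-6 under normal watering and highest in wild type under drought.

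Receptor genes were called in the other direction. Of 9 tested, 2 rose and 0 fell by edgeR, at a median of 0.43. Without adjustment, p lay under 0.05 for 6 higher and 0 lower, and DESeq2 called 4 higher and 0 lower. PYL4 stood at 58.8 and 50.8 CPM under normal watering and 21.02 and 33.4 CPM under drought in aba1-6, against 26.7 and 24.4 CPM under normal watering and 8.301 and 5.003 CPM under drought in wild type. It was lower under drought in both genotypes and higher in aba1-6 within each watering (1.49 ± 0.23 SE, edgeR adjusted p = 7.28e-05). PYL8 (RCAR3 in the annotation) was at 65.7 and 67.5 CPM under normal watering and 46.8 and 57.5 CPM under drought in aba1-6, against 35.2 and 42.01 CPM under normal watering and 29.1 and 27.7 CPM under drought in wild type. All aba1-6 libraries were above all wild-type libraries (0.83 ± 0.10 SE, edgeR adjusted p = 1.4e-07). PYL5, PYL6 and PYL9 had positive log2 fold changes of 1.36, 3.80 and 0.43 that did not pass (edgeR adjusted p = 0.0502, 0.0577 and 0.0604). Without wild-type drought replicate 1, 4 receptors were called. In the list of SnRK2 kinases, ABF factors and AFP proteins, the 12 tested members held the 2 AFP genes above and 1 that rose, the kinase gene SNRK2.3 (0.40, edgeR adjusted p = 0.0141). That call was lost without any 1 of normal replicate 2 of aba1-6, and drought replicate 1 of wild type (adjusted p up to 0.0662).

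**Figure D2:**
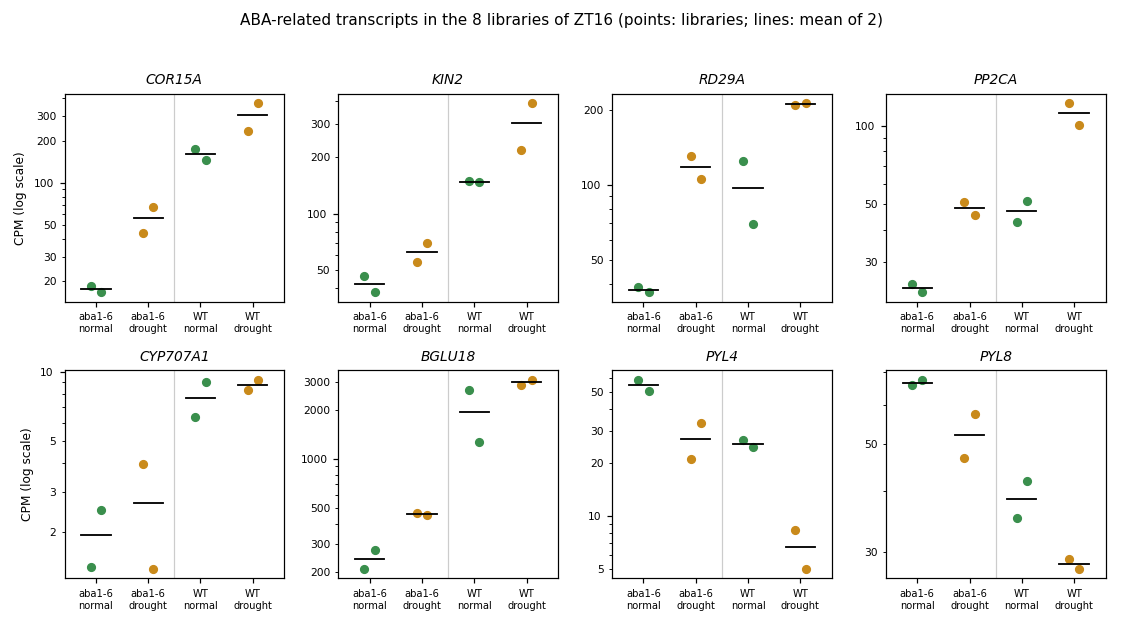
CPM (log scale) of 8 ABA-related transcripts in the 8 ZT16 libraries, with aba1-6 left and wild type (WT) right, green points for normal watering, orange for drought and a line at the mean of the 2 libraries. COR15A, KIN2, CYP707A1 and BGLU18 show all aba1-6 points below all wild-type points, PYL8 shows all of them above, and RD29A, PP2CA and PYL4 separate the genotypes within each watering.

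Some genes of ABA breakdown fell, and some of ABA synthesis rose. Of 12 genes of breakdown, conjugation and transport, 4 fell and 1 rose, and these counts stood without any 1 library. The 4 that fell make ABA inactive or release it from its glucose ester. CYP707A2, an ABA hydroxylase, was at 0.472 and 0.321 CPM under normal watering and 0.741 and 0.4602 CPM under drought in aba1-6, against 2.64 and 3.27 CPM under normal watering and 4.31 and 4.62 CPM under drought in wild type. CYP707A1, the hydroxylase known from leaves and guard cells, was at 1.41 and 2.49 CPM under normal watering and 3.98 and 1.38 CPM under drought in aba1-6, against 6.35 and 9.02 CPM under normal watering and 8.301 and 9.24 CPM under drought in wild type. In both, all aba1-6 libraries lay below all wild-type libraries (log2 fold change -2.88 ± 0.44 and -1.77 ± 0.38 SE, edgeR adjusted p = 1.05e-05 and 0.00244), as also in CYP707A4 (-2.43 ± 0.43 SE, edgeR adjusted p = 0.00014), which stayed under 3 CPM in every library. BGLU18, a glucosidase of endoplasmic reticulum bodies that frees ABA from its glucose ester, stood at 209 and 273 CPM under normal watering and 468 and 448 CPM under drought in aba1-6, against 2659.9 and 1270.0 CPM under normal watering and 2879 and 3084 CPM under drought in wild type. No library of aba1-6 came near those of wild type (-2.86 ± 0.35 SE, edgeR adjusted p = 5.1e-06). The transporter gene NPF4.6 (NRT1:2 in the annotation) rose by a log2 fold change of 0.46 (edgeR adjusted p = 0.00475).

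Of 16 genes of carotenoid and ABA synthesis, 4 rose and 0 fell by edgeR. The median was 0.13, 6 were higher and 0 lower at an unadjusted p under 0.05, and DESeq2 called 4 higher and 0 lower. Without the shallow wild-type library 1 was called, and leaving out each library in turn gave 1 to 5. NCED3, the drought-induced dioxygenase that limits ABA synthesis, stood at 7.54 and 6.99 CPM under normal watering and 23.1 and 13.7 CPM under drought in aba1-6, against 4.76 and 3.89 CPM under normal watering and 8.62 and 8.47 CPM under drought in wild type. It was higher in aba1-6 in each watering (0.92 ± 0.21 SE, edgeR adjusted p = 0.0041), and the call was lost without drought replicate 1 of aba1-6 (adjusted p = 0.062). ABA2, a dehydrogenase late in the pathway, was at 19.9 and 19.5 CPM under normal watering and 15.7 and 17.8 CPM under drought in aba1-6, against 13.1 and 15.1 CPM under normal watering and 13.9 and 3.85 CPM under drought in wild type. The aba1-6 libraries lay above those of wild type, where the shallow library was the lowest (0.57, edgeR adjusted p = 0.0134, lost without any 1 of drought replicate 2 of aba1-6, and normal replicate 1 and drought replicate 2 of wild type (adjusted p up to 0.0858)). NCED5 and the aldehyde oxidase gene AAO3 had 1.75 and 0.45 (edgeR adjusted p = 0.0322 and 0.0405). The NCED5 call was lost without any 1 of normal replicates 1 and 2 and drought replicate 2 of aba1-6, and normal replicate 2 and drought replicates 1 and 2 of wild type (adjusted p up to 0.199). The AAO3 call was lost without any 1 of normal replicates 1 and 2 and drought replicate 1 of aba1-6, and normal replicate 2 and drought replicate 2 of wild type (adjusted p up to 0.22).

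The list with the most called members was that of jasmonic acid, a lipid-derived hormone of wounding and defence made in chloroplasts and peroxisomes. Of 17 tested, 11 fell and 0 rose by edgeR, with a median log2 fold change of -0.98. An unadjusted p under 0.05 was reached by 12 lower and 0 higher, and DESeq2 called 11 lower and 0 higher. Without the shallow library 8 fell, and the counts ran from 7, without aba1-6 normal replicate 1, to 12. VSP1 and VSP2, vegetative storage proteins used as jasmonate reporters whose transcripts are alike enough to share reads, were the extreme members. VSP1 was at 3.77 and 2.49 CPM under normal watering and 4.45 and 5.41 CPM under drought in aba1-6, against 124 and 23.2 CPM under normal watering and 50.8 and 209 CPM under drought in wild type. VSP2 was at 7.54 and 9.12 CPM under normal watering and 22.3 and 25.5 CPM under drought in aba1-6, against 278 and 67.8 CPM under normal watering and 354 and 713 CPM under drought in wild type. Wild-type normal replicate 2 was the lowest wild-type library in both, and it was still above every aba1-6 library. The log2 fold changes were -4.64 ± 0.65 and -4.41 ± 0.57 SE (edgeR adjusted p = 3.62e-05 and 1.14e-05). With only the 8 libraries in the fit the VSP1 call was lost (adjusted p = 0.0607). The thionin gene THI2.1, another jasmonate reporter, was at 0 and 0.0803 CPM under normal watering and 0.185 and 0.2301 CPM under drought in aba1-6, against 1.59 and 1.87 CPM under normal watering and 1.68 and 3.85 CPM under drought in wild type, which is a fall at a very low level (-4.11, edgeR adjusted p = 0.0012).

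The synthesis enzymes moved in the same direction. AOS, the allene oxide synthase at the entry of the pathway, was at 236 and 258 CPM under normal watering and 274 and 328 CPM under drought in aba1-6, against 1064 and 591 CPM under normal watering and 597 and 586 CPM under drought in wild type. AOC1, an allene oxide cyclase of the next step, was at 31.4 and 39.3 CPM under normal watering and 38.8 and 50.5 CPM under drought in aba1-6, against 168 and 74.8 CPM under normal watering and 107 and 149 CPM under drought in wild type. In both the genotypes did not overlap (-1.36 ± 0.14 and -1.64 ± 0.25 SE, edgeR adjusted p = 1.17e-08 and 9.61e-05). AOC2, which can share reads with AOC1, fell by 1.40 (edgeR adjusted p = 0.0006). MYC2, the main transcription factor of the response, was at 45.4 and 52.3 CPM under normal watering and 65.7 and 64.1 CPM under drought in aba1-6, against 135 and 84.02 CPM under normal watering and 93.9 and 102 CPM under drought in wild type. It too was lower in every aba1-6 library (-0.88 ± 0.15 SE, edgeR adjusted p = 0.000269). The lipoxygenase gene LOX2 (-0.98), the reductase gene OPR3 (-0.59), the repressor gene JAZ9 (TIFY7 in the annotation, -0.95) and CORI3 (-1.44), which encodes a cystine lyase induced by jasmonate and coronatine, were called as well (edgeR adjusted p = 0.027, 0.0353, 0.0134 and 0.0194). LOX2 lost its call without any 1 of normal replicates 1 and 2 and drought replicates 1 and 2 of aba1-6, and normal replicate 1 and drought replicate 2 of wild type (adjusted p up to 0.178). OPR3 lost it without any 1 of the libraries except wild-type normal replicate 2 (adjusted p up to 0.21). JAZ9 lost it without any 1 of normal replicate 1 and drought replicate 1 of aba1-6, and normal replicate 1 of wild type (adjusted p up to 0.129), and CORI3 without any 1 of normal replicates 1 and 2 and drought replicates 1 and 2 of aba1-6, and normal replicate 1 and drought replicate 2 of wild type (adjusted p up to 0.13). JAZ1, JAZ2, JAZ5, JAZ10, PDF1.2 and ORA59 did not pass the test.

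**Figure D3:**
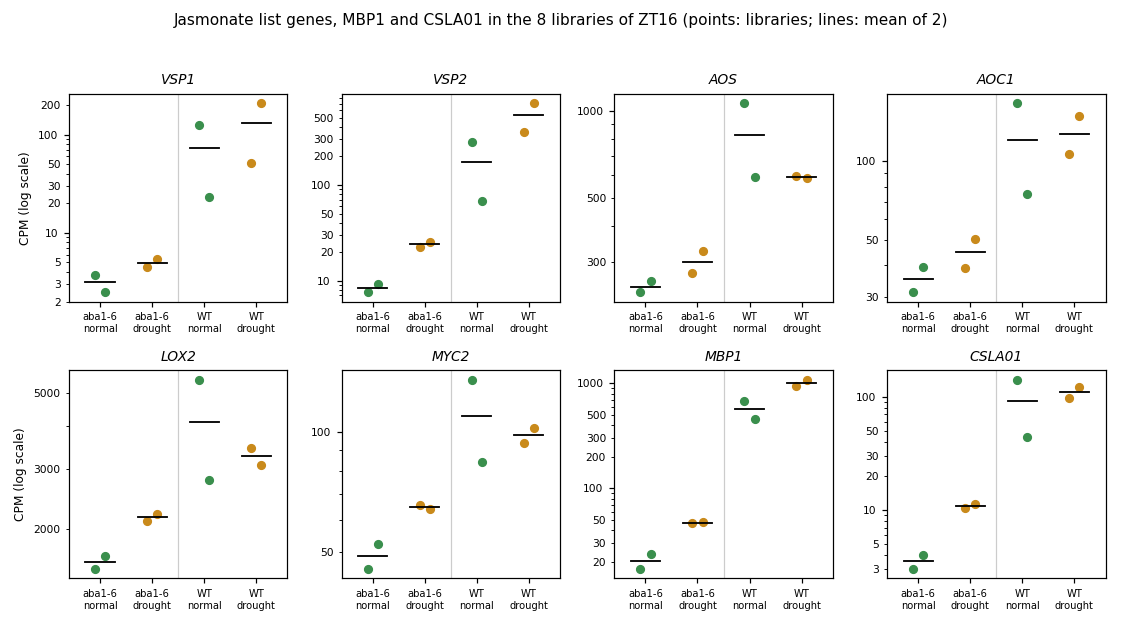
CPM (log scale) of 6 jasmonate genes and of MBP1 and CSLA01 in the 8 ZT16 libraries, with aba1-6 left and wild type (WT) right, green points for normal watering, orange for drought and a line at the mean of the 2 libraries. In all 8 panels each aba1-6 point lies below each wild-type point, and wild-type normal replicates differ widely in VSP1, VSP2, LOX2 and CSLA01.

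Outside the lists, the rule of largest changes named further genes with low levels in aba1-6. MBP1 encodes a myrosinase-binding lectin of the glucosinolate defence system and stood at 17.1 and 23.98 CPM under normal watering and 46.9 and 47.5 CPM under drought in aba1-6, against 677 and 463 CPM under normal watering and 949.5 and 1082 CPM under drought in wild type. No aba1-6 library came near any wild-type library (-4.60 ± 0.32 SE, edgeR adjusted p = 3.67e-10). Its relative MBP2, with which it can share reads, fell by 2.71 (edgeR adjusted p = 0.000398). CSLA01, a glucomannan synthase of the cell wall, was at 3.02 and 4.02 CPM under normal watering and 10.5 and 11.3 CPM under drought in aba1-6, against 140.2 and 43.6 CPM under normal watering and 96.04 and 122 CPM under drought in wild type (-3.99 ± 0.37 SE, edgeR adjusted p = 1.13e-07). The jacalin-related lectin gene JAL23 was at 0.849 and 1.53 CPM under normal watering and 0.926 and 0.2301 CPM under drought in aba1-6, against 29.2 and 5.29 CPM under normal watering and 16.2 and 21.6 CPM under drought in wild type, again with no overlap (-4.33 ± 0.74 SE, edgeR adjusted p = 0.000445). AT3G27250, AT5G40800 and AT2G35070, for which the annotation gives no symbol, fell by 3.73, 4.37 and 3.35 (edgeR adjusted p = 3.4e-05, 0.00185 and 0.00256). AT3G27250 stood at 0 and 0.321 CPM under normal watering and 6.298 and 4.26 CPM under drought in aba1-6, against 5.95 and 8.25 CPM under normal watering and 33.9 and 27.7 CPM under drought in wild type. Like the ABA-induced genes above, it was higher under drought in both genotypes. NATA1 (AT2G39030), an ornithine acetyltransferase, was called lower as well (-4.28, edgeR adjusted p = 0.0105), a call lost without any 1 of normal replicate 2 and drought replicate 1 of aba1-6, and drought replicate 2 of wild type (adjusted p up to 0.0681).

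Among genes that rose, AT3G01345 (chr3:129138-130749), a protein-coding locus without a symbol, was present in aba1-6 and almost absent in wild type. It was at 285 and 287 CPM under normal watering and 225 and 215 CPM under drought in aba1-6, against 0.529 and 0 CPM under normal watering and 0 and 0 CPM under drought in wild type, and its edgeR adjusted p was 2.64e-13. CRK30, a cysteine-rich receptor-like kinase, was at 27.3 and 29.3 CPM under normal watering and 8.89 and 16.2 CPM under drought in aba1-6, against 3.17 and 3.27 CPM under normal watering and 0.525 and 0.385 CPM under drought in wild type. No libraries overlapped, and in both genotypes drought libraries were the lower (3.88 ± 0.38 SE, edgeR adjusted p = 1.73e-08). The glycine-rich protein gene GRP9 (3.12), the serine carboxypeptidase-like gene scpl28 (2.31), and AT5G62730 (2.58), AT3G16670 (2.5) and AT4G35380 (2.40) also rose (edgeR adjusted p = 0.000143, 0.00609, 0.000339, 7.95e-08 and 0.00247). With only the 8 libraries in the fit, the calls of scpl28, AT5G62730 and AT3G16670 were lost (adjusted p = 0.0975, 0.147 and 0.0577). THAS1, which makes the triterpene thalianol, and XTH20, a cell wall xyloglucan enzyme, were at 0 CPM in both wild-type drought libraries. THAS1 was at 1.698 and 2.25 CPM under normal watering and 1.48 and 2.301 CPM under drought in aba1-6, against 1.32 and 0.467 CPM under normal watering and 0 and 0 CPM under drought in wild type. XTH20 was at 3.11 and 2.01 CPM under normal watering and 1.48 and 1.61 CPM under drought in aba1-6, against 1.32 and 0.311 CPM under normal watering and 0 and 0 CPM under drought in wild type. All aba1-6 libraries were above all wild-type libraries in both (edgeR adjusted p = 0.00275 and 0.00616), and both calls were lost without drought replicate 1 of wild type (adjusted p = 0.0548 and 0.0742).

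Genes of flavonoid and anthocyanin synthesis, the route of red pigments and sunscreen flavonols, were called only as lower in aba1-6. Of 17 tested, 10 fell and 0 rose by edgeR, at a median of -0.90. With an unadjusted p under 0.05 14 were lower and 0 higher, while DESeq2 called 9 lower and 0 higher. Without the shallow library 9 fell, and the count was 3 without wild-type normal replicate 1. Within normal watering 1 of the 17 was called lower (median -0.54), where 1.15% of all genes tested were. Within drought 9 were called lower (median -1.3), against 2.02% of all genes tested. The difference between waterings was called for 0 of the 17. The early enzyme F3H, flavanone 3-hydroxylase, was at 118 and 105 CPM under normal watering and 112 and 119 CPM under drought in aba1-6, against 227 and 125 CPM under normal watering and 305 and 254 CPM under drought in wild type. No libraries overlapped, and in aba1-6 the waterings lay close together (-0.97 ± 0.19 SE, edgeR adjusted p = 0.0013). UGT78D2, a flavonoid glucosyltransferase, was at 94.3 and 82.9 CPM under normal watering and 110.3 and 124 CPM under drought in aba1-6, against 156 and 109.8 CPM under normal watering and 255 and 224 CPM under drought in wild type (-0.82 ± 0.11 SE, edgeR adjusted p = 9.42e-07). The late-pathway gene AT4G14090 was at 57.2 and 52.8 CPM under normal watering and 89.7 and 90.5 CPM under drought in aba1-6, against 94.7 and 43.1 CPM under normal watering and 255 and 271 CPM under drought in wild type. Under drought aba1-6 was well below wild type, and under normal watering the genotypes overlapped, as wild-type normal replicate 2 was the lowest library (-0.94 ± 0.18 SE, edgeR adjusted p = 0.000831, lost at 0.167 with only the 8 libraries in the fit).

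The further calls in this list rested on single libraries. Chalcone synthase (CHS, TT4 in the annotation), the first enzyme, was at 624 and 544 CPM under normal watering and 576 and 628 CPM under drought in aba1-6, against 1178 and 734 CPM under normal watering and 1463 and 989 CPM under drought in wild type (-0.87 ± 0.25 SE, edgeR adjusted p = 0.0287). No libraries overlapped, but the call was lost without any 1 of normal replicates 1 and 2 and drought replicates 1 and 2 of aba1-6, and normal replicate 1 and drought replicate 1 of wild type (adjusted p up to 0.152). The repressor gene MYBL2 (-1.37), the transferase genes UF3GT (-1.09) and GSTF12 (-1.09) and AT5MAT (-0.95) lost their calls without normal replicate 1 of wild type (adjusted p = 0.435, 0.0595, 0.0713 and 0.124). AT5MAT lost it without aba1-6 normal replicate 2 too. TT5 (-0.50, chalcone isomerase) lost it without any 1 of normal replicate 2 and drought replicate 1 of aba1-6, and normal replicate 1 of wild type (adjusted p up to 0.117). TT7 (-0.90, flavonoid 3'-hydroxylase) lost it without any 1 of normal replicates 1 and 2 and drought replicate 2 of aba1-6, and normal replicate 1 and drought replicate 2 of wild type (adjusted p up to 0.204). DFR, the reductase that commits the pathway to anthocyanin, was at 98.5 and 76.7 CPM under normal watering and 167 and 141 CPM under drought in aba1-6, against 142 and 56.01 CPM under normal watering and 431 and 361 CPM under drought in wild type. The genotypes were apart under drought and overlapped under normal watering, and the difference did not pass (-0.77 ± 0.32 SE, edgeR adjusted p = 0.151). LDOX and the regulators TT8 and MYB90 did not pass either (-0.79, -1.01 and -1.0, edgeR adjusted p = 0.0736, 0.0867 and 0.305).

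Of 22 clock genes, 3 fell and 0 rose by edgeR (median -0.09). An unadjusted p under 0.05 was found for 4 lower and 0 higher, and DESeq2 called 3 lower and 0 higher. Without the shallow library 4 were lower. LHY, the morning repressor, was at 6.04 and 6.75 CPM under normal watering and 6.11 and 7.13 CPM under drought in aba1-6, against 9.39 and 13.2 CPM under normal watering and 13.3 and 13.5 CPM under drought in wild type. All aba1-6 libraries were below all wild-type libraries (-0.91 ± 0.18 SE, edgeR adjusted p = 0.00084). LNK1 (AT5G64170) had -0.46 (edgeR adjusted p = 0.00513, lost without drought replicate 1 of wild type (adjusted p = 0.142)). CHE (AT5G08330), a repressor of CCA1, had -0.45 (edgeR adjusted p = 0.0369), and its call was lost without any 1 of normal replicates 1 and 2 and drought replicates 1 and 2 of aba1-6, and normal replicate 2 and drought replicate 1 of wild type (adjusted p up to 0.312). CCA1, the partner of LHY, overlapped between genotypes (-0.13, edgeR adjusted p = 0.873), as did the evening genes TOC1 (0.05, 0.842) and GI (-0.39, 0.0734).

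In photoperiodic flowering, 3 of 20 genes rose and 2 fell. SOC1 (AGL20 in the annotation), a MADS-box promoter of flowering, was at 1.79 and 3.65 CPM under normal watering and 3.33 and 5.06 CPM under drought in aba1-6, against 6.48 and 8.56 CPM under normal watering and 12.2 and 18.5 CPM under drought in wild type. Every aba1-6 library was below every wild-type library (-1.58 ± 0.22 SE, edgeR adjusted p = 1.8e-06). Its upstream activator FT, a florigen, was at 1.32 and 1.69 CPM under normal watering and 3.704 and 4.26 CPM under drought in aba1-6, against 4.099 and 2.33 CPM under normal watering and 5.67 and 2.31 CPM under drought in wild type, with overlap and no call (-0.60, edgeR adjusted p = 0.53). The repressor genes FLC (0.47), RAV2 (1.11) and CDF2 (0.70) were called higher and SVP (-0.25) lower (edgeR adjusted p = 0.0137, 0.0104, 0.0402 and 0.045). FLC lost its call without any 1 of normal replicate 2 of aba1-6, and normal replicate 2 and drought replicate 1 of wild type (adjusted p up to 0.128), and RAV2 without any 1 of normal replicate 2 of aba1-6, and drought replicate 1 of wild type (adjusted p up to 0.352). CDF2 lost it without any 1 of normal replicate 1 and drought replicates 1 and 2 of aba1-6, and normal replicate 2 and drought replicates 1 and 2 of wild type (adjusted p up to 0.192). SVP lost it without any 1 of the libraries except aba1-6 drought replicate 2 (adjusted p up to 0.278). The floral organ genes PI and SEP3 were called higher at very low levels. SEP3 was at 0.754 and 0.643 CPM under normal watering and 0.3704 and 0.345 CPM under drought in aba1-6, against 0 and 0 CPM under normal watering and 0 and 0 CPM under drought in wild type. PI was at 1.32 and 2.45 CPM under normal watering and 2.96 and 2.07 CPM under drought in aba1-6, against 0.264 and 0.311 CPM under normal watering and 1.05 and 0.7697 CPM under drought in wild type. Neither overlapped between genotypes (edgeR adjusted p = 0.0179 for PI and 0.0287 for SEP3). The PI call was lost without any 1 of normal replicate 2 and drought replicate 1 of aba1-6, and normal replicates 1 and 2 of wild type (adjusted p up to 0.111). That of SEP3 was lost without any 1 of normal replicate 2 and drought replicate 1 of aba1-6, and normal replicates 1 and 2 and drought replicates 1 and 2 of wild type (adjusted p up to 0.0983).

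Gibberellin genes were called in 4 of 6 cases, 3 higher and 1 lower, and without any 1 library the counts stood. GA3OX1, which makes the active hormone, was at 10.19 and 9.36 CPM under normal watering and 4.63 and 4.14 CPM under drought in aba1-6, against 4.76 and 5.13 CPM under normal watering and 0.736 and 0 CPM under drought in wild type. It was higher in aba1-6 within each watering and lower under drought in both genotypes (1.96 ± 0.29 SE, edgeR adjusted p = 7.03e-06). GASA6 (AT1G74670), a small cysteine-rich peptide induced by gibberellin, was at 84.97 and 98.8 CPM under normal watering and 92.1 and 65.6 CPM under drought in aba1-6, against 11.6 and 26.3 CPM under normal watering and 23.64 and 35.4 CPM under drought in wild type. No libraries overlapped (1.90 ± 0.18 SE, edgeR adjusted p = 3.44e-08), nor did they in GASA4 (0.86 ± 0.11 SE, edgeR adjusted p = 4.41e-07). GASA1 fell over both waterings, at 16.98 and 25.8 CPM under normal watering and 8.15 and 7.82 CPM under drought in aba1-6, against 93.5 and 113 CPM under normal watering and 18.6 and 26.9 CPM under drought in wild type (-1.83 ± 0.33 SE, edgeR adjusted p = 0.00084). Of 13 PIF and growth genes, HFR1, an inhibitor of PIF factors, was at 1.51 and 2.25 CPM under normal watering and 2.78 and 4.14 CPM under drought in aba1-6, against 4.89 and 4.67 CPM under normal watering and 5.78 and 6.54 CPM under drought in wild type and fell without overlap (-1.05, edgeR adjusted p = 0.00071). PIF4 (-0.61) was called lower and IAA29 (1.64) higher, and PIF4 lost its call without drought replicate 1 of wild type (adjusted p = 0.526) and IAA29 without normal replicate 1 of wild type (adjusted p = 0.0932).

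Of 21 photosynthesis genes, 5 rose and 0 fell by edgeR, all of them antenna genes (median 0.10). At an unadjusted p under 0.05 5 were higher and 0 lower, and DESeq2 called 5 higher and 0 lower. Without the shallow wild-type library 2 rose. CAB2, an antenna protein of photosystem II whose near-identical copies can split reads, was at 42.4 and 46.9 CPM under normal watering and 68.2 and 58.1 CPM under drought in aba1-6, against 24.99 and 32.5 CPM under normal watering and 34.8 and 35.8 CPM under drought in wild type. LHCB3, of the same antenna, was at 273 and 291 CPM under normal watering and 377 and 323 CPM under drought in aba1-6, against 182 and 193 CPM under normal watering and 256 and 155 CPM under drought in wild type. Neither overlapped between genotypes, and in LHCB3 the shallow library was the lowest (0.74 ± 0.16 and 0.67 ± 0.13 SE, edgeR adjusted p = 0.00144 and 0.000558). LHCB2.1 (0.56), LHCB5 (0.41) and LHCA4 (0.36) each lost their call without aba1-6 normal replicate 2, wild-type normal replicate 1 or the shallow library. LHCB2.1 and LHCA4 lost it also without aba1-6 drought replicate 1, and LHCB5 without aba1-6 drought replicate 2 or wild-type normal replicate 2 (adjusted p up to 0.124, 0.204 and 0.176). Of 9 guard cell markers 3 rose and 1 fell. AT1G22690 stood at 16.8 and 21.3 CPM under normal watering and 10.9 and 13.7 CPM under drought in aba1-6, against 32.7 and 25.2 CPM under normal watering and 16.4 and 25.8 CPM under drought in wild type and fell over both waterings (-0.64 ± 0.15 SE, edgeR adjusted p = 0.00382), while within normal watering and within drought it was not called (adjusted p = 0.116 and 0.0731). The potassium channel genes KAT1 (0.42) and KAT2 (0.80) and the factor MYB60 (0.61) were called higher. KAT2 lost its call without drought replicate 1 of aba1-6 (adjusted p = 0.14). KAT1 lost it without any 1 of normal replicate 1 and drought replicate 1 of aba1-6, and normal replicate 2 and drought replicate 1 of wild type (adjusted p up to 0.133). MYB60 lost it without any 1 of normal replicate 1 and drought replicate 1 of aba1-6, and normal replicate 1 and drought replicates 1 and 2 of wild type (adjusted p up to 0.154). The 9 guard cell markers together summed to 2693 to 3055 CPM in aba1-6 and 1286 to 3632 CPM in wild type. The part of the share of guard cells in these differences was not tested.

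Of the 9 genes of the DREB/CBF list, 14 of starch metabolism, 7 of carbon starvation, 7 of heat shock and 7 reference genes, 0 were called by edgeR. At an unadjusted p under 0.05 the DREB/CBF list had 1 lower, starch 2 higher and 1 lower, carbon starvation 1 higher and 1 lower, heat shock 0 and the reference genes 1 lower. DESeq2 called 1 of them, a carbon starvation gene (DRM1), lower.

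The genotypes were also compared within each watering. Under drought 720 genes (3.78%) were called, 336 higher (1.76%) and 384 lower (2.02%) in aba1-6, and under normal watering 366 (1.92%), 147 higher (0.772%) and 219 lower (1.15%). The scaling moved the split under normal watering to 238 higher and 139 lower with library totals (63.1% higher, against 40.2%). The drought count was 332 without aba1-6 drought replicate 1, 328 without aba1-6 drought replicate 2, 1800 without wild-type drought replicate 1 and 322 without the shallow one. The normal-watering count was 115, 112 and 140 without aba1-6 normal replicate 1, aba1-6 normal replicate 2 and wild-type normal replicate 1, and 435 without the shallow library. Both waterings called 54 genes higher, 16.1% of those called under drought and 36.7% of those under normal watering. They shared 101 genes called lower, 26.3% of those under drought and 46.1% of those under normal watering.

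The difference between aba1-6 and wild type itself depended on watering for 16 genes (0.084%), of which 15 (0.0788%) had a larger value under drought and 1 (0.00525%) a smaller one. Among the 15 are genes known for phosphate starvation, in which plants replace phospholipids by sulfolipids and galactolipids, secrete acid phosphatases and move phosphate through the shoot. AT4 is a noncoding RNA that holds back the microRNA miR399 and so protects PHO2, and SRG3 encodes a glycerophosphodiester phosphodiesterase. These 2 are shown because they had the largest values. In many phosphate starvation genes the factor PHR1 binds a motif of the form GNATATNC, marked here in capitals. AT4 lies at chr5:894332-894581 on the plus strand and SRG3 at chr3:350011-350260 on the minus strand, in each case the 250 bases before the start (RefSeq, TAIR10.1).
AT4: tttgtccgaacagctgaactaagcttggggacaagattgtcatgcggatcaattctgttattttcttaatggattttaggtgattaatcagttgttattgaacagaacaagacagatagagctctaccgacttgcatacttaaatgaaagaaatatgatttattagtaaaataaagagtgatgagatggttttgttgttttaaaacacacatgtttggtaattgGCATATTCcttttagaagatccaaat
SRG3: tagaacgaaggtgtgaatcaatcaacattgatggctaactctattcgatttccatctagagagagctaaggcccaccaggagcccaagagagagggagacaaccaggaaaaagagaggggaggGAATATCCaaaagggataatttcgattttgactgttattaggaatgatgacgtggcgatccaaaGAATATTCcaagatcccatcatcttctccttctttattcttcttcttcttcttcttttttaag
GNATATNC, searched on both strands, was found in 3 of the 15 genes (AT4, SRG3 and PLDP2), against 5.38% of genes tested. It was also found in 2 of the 8 ABA-induced genes that fell (KIN2 and RD20), and in the 15 genes CCGAC and AAATATCT were each found in 3 as well, against 13.0% and 5.06% of genes tested. The motif was chosen after these genes had been seen, and nothing particular to them follows from these counts. AT4 had 1 match, beginning 26 bases before the start, and SRG3 had 2, beginning at 127 and 63.

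AT4 stood at 19.4 and 16.1 CPM under normal watering and 62.6 and 106 CPM under drought in aba1-6, against 14.8 and 14.0 CPM under normal watering and 5.36 and 10.01 CPM under drought in wild type. Under drought aba1-6 was well above wild type, and under normal watering the genotypes lay close together. The effect of genotype was larger under drought by 3.34 ± 0.61 SE on the log2 scale (edgeR adjusted p = 0.0162). SRG3 was at 34.1 and 28.8 CPM under normal watering and 55.7 and 133 CPM under drought in aba1-6, against 59.2 and 51.03 CPM under normal watering and 14.7 and 17.3 CPM under drought in wild type. Here aba1-6 was the lower under normal watering, where the gene was not called (edgeR adjusted p = 0.352). It was the higher under drought (edgeR adjusted p = 0.000528), and the difference between these effects was 3.41 ± 0.57 SE (edgeR adjusted p = 0.00957). SQD1 and SQD2 make the sulfolipid of chloroplast membranes. SQD1 was at 231 and 211 CPM under normal watering and 414 and 709.5 CPM under drought in aba1-6, against 306 and 271 CPM under normal watering and 236 and 209 CPM under drought in wild type. Drought and normal libraries were apart in aba1-6, with drought higher, and in wild type drought was the lower (1.72 ± 0.24 SE, edgeR adjusted p = 0.00036, and 1.40 ± 0.23 SE, 0.00234 for SQD2). PHO1, which exports phosphate to the xylem, was at 15.9 and 11.7 CPM under normal watering and 22.8 and 23.8 CPM under drought in aba1-6, against 18.6 and 15.7 CPM under normal watering and 6.72 and 6.16 CPM under drought in wild type. The 2 drought groups did not overlap with each other or with any normal-watering library (2.16 ± 0.38 SE, edgeR adjusted p = 0.00481).

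The acid phosphatase genes PAP17 (1.88) and PAP12 (1.12) and the gene PS3 (2.06) were called in the same direction (edgeR adjusted p = 0.0162, 0.0117 and 0.00234). Called likewise were the phospholipase gene PLDP2 (2.78), the galactolipid synthase gene DGD1 (0.82) and PHO2 (0.92), a ubiquitin-conjugating enzyme of phosphate homeostasis (edgeR adjusted p = 0.0474, 0.0117 and 0.0474). So were the cytokinin oxidase gene CKX4 (2.3) and AT1G23205, AT2G40400 and AT1G68670 (1.25, 1.19 and 0.94). Within normal watering 2 of the 15 were called between genotypes (1.92% of all genes tested), and within drought 14 (3.78%). The 15 had been chosen by the difference between these effects. In 14 of the 15 the mean of aba1-6 was higher under drought than under normal watering, CKX4 being the exception, and in all 15 the mean of wild type was lower under drought. The 1 gene in the other direction was CPUORF47 (-0.83, edgeR adjusted p = 0.0331), a locus (AT5G03190) named for a conserved peptide of an upstream open reading frame. Of the 5 tested genes of the phosphate starvation list, SQD2 and PAP17 were called, while SPX1, MGD2 and MGD3 were not. Over both waterings SQD2 was the 1 member of that list called (0.47, edgeR adjusted p = 0.00738), and this call was lost without drought replicate 2 of aba1-6 (adjusted p = 0.166). Without the shallow library 2 members were called over both waterings.

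**Figure D4:**
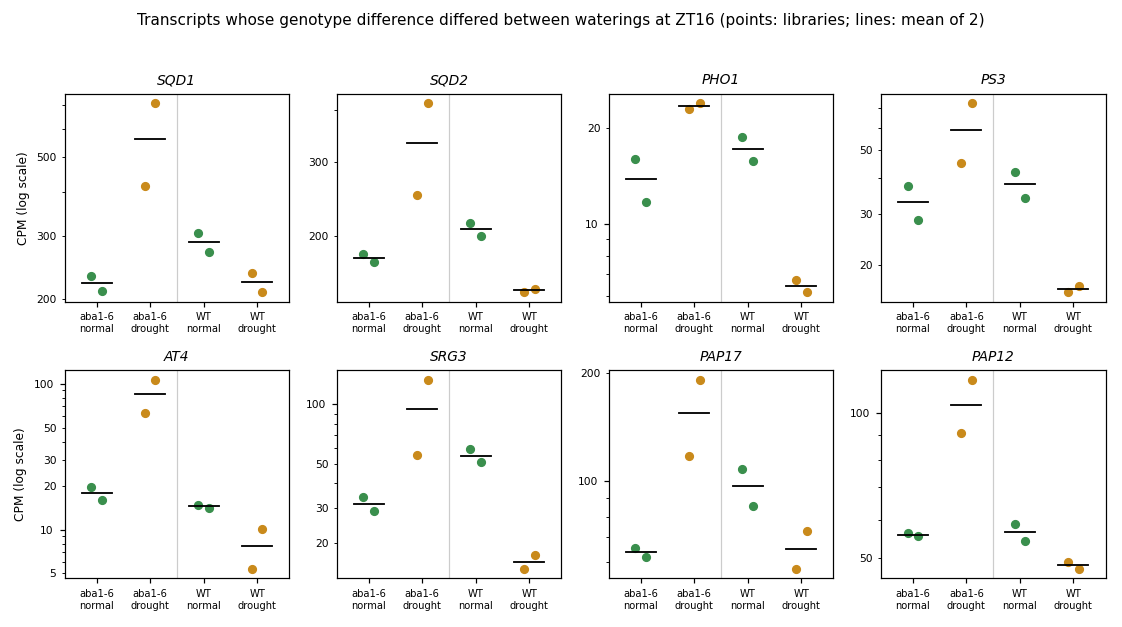
CPM (log scale) of 8 of the 16 transcripts whose genotype difference depended on watering, with aba1-6 left and wild type (WT) right, green points for normal watering, orange for drought and a line at the mean of the 2 libraries. In each panel drought is higher than normal watering in aba1-6 and lower in wild type, and the aba1-6 drought replicates differ most in SRG3 and SQD1.

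This count was sensitive to single libraries. It was 1 without aba1-6 normal replicate 2, 4 without aba1-6 drought replicate 2 or wild-type normal replicate 1, 9 without aba1-6 normal replicate 1, 30 without aba1-6 drought replicate 1 and 104 without wild-type drought replicate 1, and without the shallow library it was 16. Only SQD1 kept its call without any 1 library, and each of the other 15 lost it without at least 1. With only the 8 libraries in the fit SQD1 was not called either (adjusted p = 0.134), and 2 of the 16 kept their call. Without the shallow library other genes were called, and AT1G23205 and AT1G68670 were among those that lost their call. The same difference was computed at the other times. Those libraries did not enter the ZT16 contrast, but they shared the estimate of spread by which these genes were called. Of the 15 genes, 14 had a positive value at ZT1, 15 at ZT8 and 15 at ZT12, with medians of 0.68, 0.62 and 1.40 against 1.72 at ZT16. The share of positive values over all genes tested was not computed. The 15 were chosen by their ZT16 values, which raises the ZT16 median against those at ZT1, ZT8 and ZT12. Called at those times were 0, 1 and 6 of the 15, where 0.0263%, 0.147% and 0.063% of all genes tested were called. At ZT12 the 6 were AT4, PHO1, PS3, SQD1, PAP12 and AT1G23205, and the 1 at ZT8 was AT1G23205. For SQD1 the values were 0.68, 0.55 and 1.40 (edgeR adjusted p = 0.507, 0.649 and 0.00633).

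Whether a difference belonged to ZT16 was tested against the mean of ZT1, ZT8 and ZT12, which share no library with it. This called 47 genes (0.247%), 21 (0.11%) with a larger value at ZT16 and 26 (0.137%) with a smaller one. CAB2 had differences of -0.28, -0.47 and 0.12 at the 3 earlier times and 0.74 at ZT16, so its difference at ZT16 was above the earlier mean (0.95 ± 0.18 SE, edgeR adjusted p = 0.00719). AUR2, a mitotic kinase, and BBX16 (AT1G73870), a B-box protein of light signalling, had the same course (0.91 and 1.48, edgeR adjusted p = 0.0402 and 0.0224). In another group aba1-6 was below wild type early in the day and the gap was smaller at ZT16. SPDS3 had -1.45, -0.85 and -0.65 and then -0.34 (0.65 ± 0.11 SE, edgeR adjusted p = 0.00365). ABI2 had -1.26, -0.91 and -0.91 and then -0.32 (0.71 ± 0.15 SE, edgeR adjusted p = 0.0211). COR413-PM1 and the annexin gene ANNAT1 behaved alike (0.44 and 0.51, edgeR adjusted p = 0.0402 and 0.0475). TET15 had -6.37, -4.24 and -1.25 and then -0.99 (2.96, edgeR adjusted p = 0.0379). Its drought minus normal difference at ZT1 had an SE of 3769, so the size of its ZT1 value is poorly determined. No course over the day is read from it. AT2G27420 had -1.29, -0.92 and -0.25 and then 0.13 (0.94, edgeR adjusted p = 0.00506). Of the 30 ABA-induced genes tested, 25 had a positive value in this comparison with earlier times and 5 a negative one. Their median was 0.5, against 0.005 for all genes tested, and 1 was called.

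In the opposite direction AT1G22690 was higher in aba1-6 at ZT1 and ZT8 (1.02 and 1.01) and lower at ZT16 (-0.64), a difference of -1.45 ± 0.18 SE (edgeR adjusted p = 4.44e-06). AOC1 had small differences at the earlier times (-0.14, -0.20 and -0.46) and -1.64 at ZT16, which lay below their mean (-1.37 ± 0.29 SE, edgeR adjusted p = 0.0379). It was the 1 called member of the jasmonate list, while all 17 tested members had a negative value (median -0.57, against 0.005 for all genes tested). ERD5, a proline dehydrogenase, and XTH6, a xyloglucan enzyme of the cell wall, were also lower against their earlier differences (-1.23 and -1.15, edgeR adjusted p = 0.0249 and 0.00984). XTH6 stood at 36.4 and 45.5 CPM under normal watering and 12.1 and 25.4 CPM under drought in aba1-6, against 164 and 135 CPM under normal watering and 131 and 80.4 CPM under drought in wild type, with no overlap. AT1G66100 (-2.25) and AT4G11290 (-1.45) complete the named genes, and AT4G11290 still had a positive log2 fold change at ZT16 (1.12). Of the 15 named, AT1G22690, AT2G27420 and SPDS3 kept the call without any 1 of the 8 libraries. The count of 47 was 13, 22 and 7 without aba1-6 normal replicate 1, normal replicate 2 and drought replicate 1, 8, 93 and 181 without wild-type normal replicate 1, normal replicate 2 and drought replicate 1, and 29 without the shallow library.

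**Figure D5:**
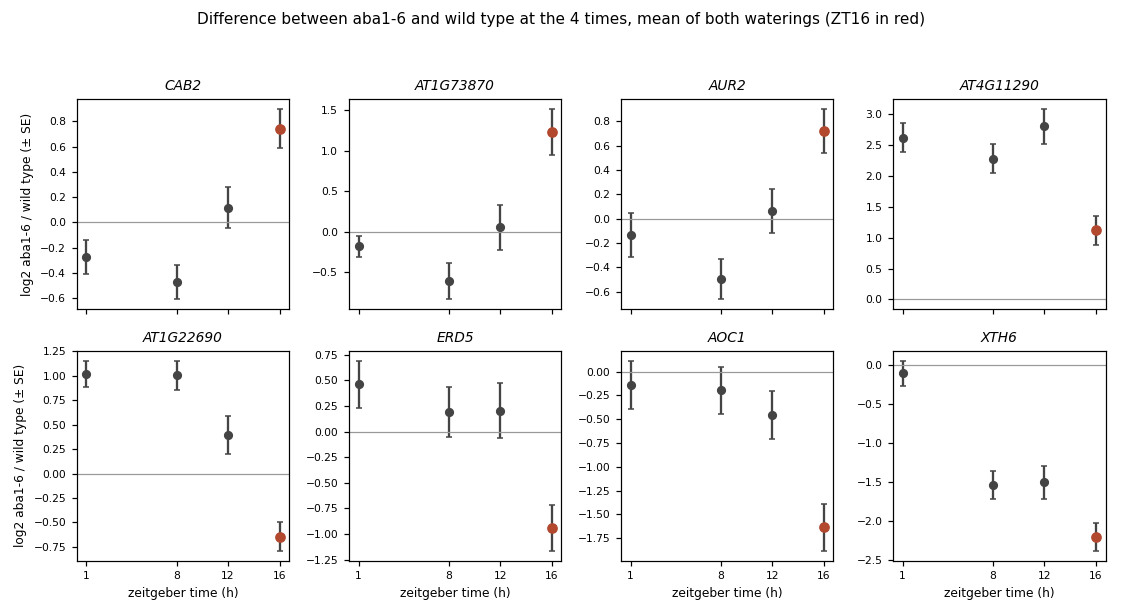
Log2 ratio of aba1-6 to wild type (mean of both waterings, bars ± 1 SE from the edgeR fit) at the 4 zeitgeber times for 8 genes whose ZT16 difference was called different from the mean of the earlier times, with ZT16 in red and a line at 0. CAB2, AT1G73870 and AUR2 lie near or below 0 at the earlier times and above it at ZT16, and AT1G22690 and ERD5 lie above 0 at the earlier times and below it at ZT16.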

How the data were processed

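Poly(A) RNA of 48 libraries was summarised per gene by the authors in 1 table. The tools and build named in the submitters' processing notes are RSEM, Bowtie2 and edgeR with TAIR10. For versions, settings and the strand option of the counting, nothing was found in the sources used here. The values the authors deposited are expected counts, judged from the numbers: 98.6% are whole, and totals differ between libraries. Among small whole values 66.8 to 80.2% per library were even, so no counting intervals are given.

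Expected counts were rounded. In R 4.3.3 with edgeR 4.0.16, filterByExpr left 19037 of 26988 genes, scaled by TMM. A model with 24 group means was fitted to all 48 libraries (24 residual degrees of freedom, biological coefficient of variation 12.1%), with robust quasi-likelihood F-tests on contrasts and Benjamini-Hochberg adjustment over all genes tested. CPM values are the deposited counts scaled to a common TMM-adjusted library total. A standard error is the log2 fold change divided by the square root of F. Log2 fold changes of genes at 0 in a whole group depend on edgeR's prior count. DESeq2 1.42.0, other scalings, filters, fits and left-out libraries were alternatives. The procedure was tested on simulated data with 200 changed genes, drawn at 1 spread for all genes and groups. Spreads that differ between groups, as in these data, were not part of that test. Between aba1-6 and wild type, same-numbered libraries did not deviate together (correlation 0.037 under normal watering and -0.045 under drought). Between the waterings the correlation was 0.296 in wild type and -0.078 in aba1-6. With these signs mixed, no pairing was used. P-values rest on 2 libraries per group. A gi-2 library whose title and genotype tag disagree entered only the shared estimate of the spread, and without it 1435 genes were called over both waterings.

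The 8 libraries, the lists and the tests were chosen with earlier results of these data known. Named genes are ABA1, the 10 called genes with the largest change in each direction per comparison (5 for the difference contrasts) at a mean of at least 1 CPM, up to 4 called members per list, 14 fixed genes, and members against a list's majority. For the comparison over both waterings, the largest changes were taken among genes with aba1-6 and wild type apart within each watering. Further list members named here (among them COR15B, KIN1, ERD10, COR413-PM1, LEA4-5, ABI1, ABI2, PYL5, PYL6, PYL9, AOS, AOC2, LOX2, OPR3, JAZ9, CORI3, MYC2, UGT78D2, AT4G14090, TT5, TT7, AT5MAT, LDOX, TT8, MYB90 and LHCA4) and ANNAT1, SPDS3 and XTH6 were chosen after their values were seen. Names, positions and promoters come from TAIR10.1, where 26260 of 26988 rows matched 1 locus.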

Additional observations from a re-analysis of the deposited data

Results flagged for a closer look

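Results stand here because 2 effects of genotype were compared by a test and differed. In the first set, the log2 ratio of aba1-6 to wild type at ZT16 under drought minus that under normal watering passed edgeR's quasi-likelihood test. This difference was 3.41 for SRG3, 3.34 for AT4, 2.78 for PLDP2, 2.3 for CKX4, 2.16 for PHO1 and 2.06 for PS3. It was 1.88 for PAP17, 1.72 for SQD1, 1.40 for SQD2, 1.25 for AT1G23205 and 1.19 for AT2G40400. PAP12 had 1.12, AT1G68670 0.94, PHO2 0.92 and DGD1 0.82, and CPUORF47 was the 1 with a negative value, -0.83. Of these 16, SQD1 alone kept its call without any 1 of the 8 libraries, and it lost it with only those 8 in the fit (adjusted p = 0.134).

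In the second set, the ratio at ZT16 minus the mean of the ratios at ZT1, ZT8 and ZT12 passed the same test. It was 2.96 for TET15, 1.48 for AT1G73870, 0.95 for CAB2, 0.94 for AT2G27420, 0.91 for AUR2, 0.71 for ABI2, 0.65 for SPDS3, 0.51 for ANNAT1 and 0.44 for COR413-PM1. Negative values were those of AT1G66100 (-2.25), AT1G22690 (-1.45), AT4G11290 (-1.45), AOC1 (-1.37), ERD5 (-1.23) and XTH6 (-1.15). Of these 15, AT1G22690, AT2G27420 and SPDS3 kept their call without any 1 of the 8 libraries. TET15 is scarce at ZT16, at 0.6602 and 0.964 CPM under normal watering and 2.59 and 2.07 CPM under drought in aba1-6, against 0.793 and 1.24 CPM under normal watering and 9.56 and 5.39 CPM under drought in wild type.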

How the results depend on the processing

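Of 129 named genes called over both waterings, 69 kept their call without any 1 of the 8 libraries. With only the 8 libraries in the fit 73 of 128 did, with the 32 aba1-6 and wild-type libraries 107, with DESeq2 127 of 128, with RLE factors 129, with library totals 123, and without the 5 shallowest of the 48 libraries 111. Leaving out each of the 8 libraries gave 822 to 2244 genes over both waterings, 322 to 1800 under drought, 112 to 435 under normal watering, 1 to 104 for the difference between waterings and 7 to 181 for the difference between times. With only the 8 libraries in the fit the counts were 579 over both waterings, 275 under drought, 115 under normal watering and 3 for the difference between waterings, and the difference between times could not be fitted. With the 32 libraries they were 447 under drought, 199 under normal watering, 7 for the difference between waterings and 20 between times. Without a filter on low counts they were 1158 under drought, 691 under normal watering, 141 between waterings and 344 between times. Without the 5 shallowest of the 48 libraries they were 469 under drought, 608 under normal watering and 80 between times. DESeq2 gave 32 between waterings and 145 between times, and library totals 71 between times. A replicate block within genotypes gave 771 under normal watering, 89 between waterings and 211 between times. As a plain replicate block it gave 1624, 803, 428, 18 and 70 in the order of the leave-one-out ranges. It changed no call of the 129 named genes. The log2 fold change over both waterings turned to the other sign only for genes that were not called. Over the 8 left-out libraries ABA1 ran from -0.31 to 0.016, AT2G40400 from -0.037 to 0.19, CCA1 from -0.31 to 0.89, LEA4-5 from -0.76 to 0.31, MGDC (MGD3) from -0.16 to 0.72 and TOC1 from -0.050 to 0.15. LTI65 had 0.49 with only the 8 libraries in the fit, and MGDC -0.28 with the within-genotype block. The cause was not tested. In wild-type drought replicate 2 (2289812 counts), genes of a few CPM rest on few counts. What this does to the drought calls was not tested.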

Other observations

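Cuticle genes, which make and export the wax and lipid cover of leaves, were called in 4 of 9 cases, 1 higher and 3 lower in aba1-6. WSD1, a wax ester synthase, stood at 3.395 and 4.46 CPM under normal watering and 8.52 and 6.33 CPM under drought in aba1-6, against 8.33 and 9.02 CPM under normal watering and 32.3 and 36.9 CPM under drought in wild type. It was lower in aba1-6 within each watering (-1.65 ± 0.28 SE, edgeR adjusted p = 0.000235). The lipid transfer protein gene LP1 fell by 0.45 and MYB94, a regulator of wax synthesis, by 0.41 (edgeR adjusted p = 0.00642 and 0.0288). The MYB94 call was lost without any 1 of normal replicate 2 and drought replicate 1 of aba1-6, and normal replicates 1 and 2 and drought replicate 2 of wild type (adjusted p up to 0.24), and that of LP1 with only the 8 libraries in the fit (adjusted p = 0.0778). AZI1, a lipid transfer-like protein of defence priming, was at 4.62 and 4.699 CPM under normal watering and 2.96 and 9.32 CPM under drought in aba1-6, against 1.59 and 1.71 CPM under normal watering and 0.2102 and 0.7697 CPM under drought in wild type. It was higher in every aba1-6 library (2.80 ± 0.62 SE, edgeR adjusted p = 0.00489), and the call was lost without drought replicate 1 of wild type (adjusted p = 0.0819). Of 12 genes of aliphatic glucosinolate synthesis 1 rose, IMS2, which is MAM3 and lengthens side chains. It was at 44.6 and 46.3 CPM under normal watering and 42.7 and 47.4 CPM under drought in aba1-6, against 23.8 and 11.4 CPM under normal watering and 22.1 and 6.54 CPM under drought in wild type, with no overlap (1.40 ± 0.30 SE, edgeR adjusted p = 0.00367).

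Of 19 salicylic acid and defence genes 1 rose and 1 fell. CBP60G, a calmodulin-binding activator of the pathway, had 0.98 (edgeR adjusted p = 0.00152, lost without drought replicate 1 of wild type (adjusted p = 0.0683)), and WRKY38 was at 1.13 and 0.803 CPM under normal watering and 0.185 and 0.805 CPM under drought in aba1-6, against 4.36 and 3.11 CPM under normal watering and 2.31 and 3.85 CPM under drought in wild type, lower without overlap (-2.28, edgeR adjusted p = 0.00414). Of 9 light stress and antioxidant genes 2 fell. GPX7, a chloroplast glutathione peroxidase, was at 0.377 and 0.1205 CPM under normal watering and 0.926 and 0.6903 CPM under drought in aba1-6, against 3.04 and 1.09 CPM under normal watering and 5.57 and 7.697 CPM under drought in wild type (-3.12 ± 0.47 SE, edgeR adjusted p = 1.57e-05). VTC2, which controls ascorbate synthesis, had -0.30 (edgeR adjusted p = 0.0136), and its call was lost without any 1 of normal replicate 2 and drought replicate 1 of aba1-6, and normal replicate 1 and drought replicate 2 of wild type (adjusted p up to 0.117). Of 7 osmolyte genes ERD5 fell (-0.94, edgeR adjusted p = 0.00495, lost without normal replicate 1 of wild type (adjusted p = 0.0517)). Of 11 ethylene genes the receptor gene ERS1 rose (0.30, edgeR adjusted p = 0.0319), and its call was lost without any 1 of normal replicate 2 and drought replicate 1 of aba1-6, and normal replicates 1 and 2 and drought replicate 2 of wild type (adjusted p up to 0.169).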
